A study of Mus musculus with 20 samples.

Results

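The comparison covers the pituitary gland of male C57BL/6N mice on a chow diet, labelled Klf14 knockout (KO) against labelled wild type (WT). Its members are the 10 pituitary libraries of the 20 libraries in the series, picked by the tissue and genotype in the labels, 5 labelled KO and 5 labelled WT. The other 10 libraries are inguinal white fat (iWAT) with the same 2 labels and serve here only for the test of a difference between tissues. Poly(A) RNA was read by single-end sequencing and deposited as read counts for 24062 genes, of which 16389 had enough counts to be tested.

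The labelled KO libraries carry mouse numbers 31, 32, 35, 50 and 66, and the labelled WT libraries numbers 33, 34, 48, 49 and 56. Values per library are given in these orders throughout, and the order has no other meaning. Mouse 50 was 19 weeks old and the other labelled KO mice 21 weeks. Mice 33 and 34 were 21 weeks old, 48 and 49 were 19 weeks and 56 was 18 weeks, so age was not balanced between the labels. The knockout is described as germline, so every cell type of the gland would carry it, and neither its breeding nor the deleted stretch of the gene is given in the sources used here. Whether the 5 libraries of a group are 5 separate animals is not said in so many words, and the p-values cover only the spread seen among them.

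As background, KLF14 is an intronless member of the Krüppel-like family of zinc finger transcription factors, which bind GC-rich and CACCC-type motifs in promoters. It is best known from human variants near the gene that are associated with fat distribution and lipid traits, and in many tissues its transcript is imprinted. The anterior pituitary holds endocrine cells that each store and secrete one or a few hormones: growth hormone, prolactin, adrenocorticotropic hormone, thyrotropin and the gonadotropins. Stem and folliculostellate cells, vessels, fibroblasts and macrophages lie between them, the melanotrophs of the intermediate lobe make melanocyte-stimulating hormone from the Pomc product, and the posterior lobe holds hypothalamic nerve endings with glial pituicytes.

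The libraries had the hormone transcripts of a pituitary. Gh, the growth hormone gene, read 80230.0, 99275, 113699, 120315 and 84265 CPM (counts per mega-count, with library sizes scaled by TMM, which evens out differences in composition) in the labelled KO libraries and 72134, 112341, 112114, 100473 and 84558 CPM in the labelled WT libraries. Prl, for prolactin, read 18175, 23713, 26278, 25562 and 19493 CPM against 19785, 23548, 25061, 26321 and 19815 CPM. Pomc, the precursor of adrenocorticotropic hormone, read 11719, 13994, 8422, 8172 and 7870.3 CPM against 7688, 9158, 9409, 5578 and 4696 CPM. For each of these 3 genes the labelled groups overlapped. Total counts ran from 13.6 to 17.6 M, and the spread between libraries at high counts was a coefficient of variation of 0.101.

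The libraries of 2 labelled KO mice stood apart in markers of other cells. In the library of mouse 50 the 13 macrophage markers summed to 346.5 CPM, against 111.1 to 166.9 CPM in the other labelled KO and 125.9 to 149.2 CPM in the labelled WT libraries. There the 9 neutrophil and lymphocyte markers summed to 368.1 CPM, with at most 21.5 CPM in any other library, and most of that sum was S100a8 and S100a9, which mark neutrophils. In the library of mouse 66 the 9 posterior lobe markers summed to 514.7 CPM, against 186.1 to 251.7 CPM in the other labelled KO and 224.1 to 341.6 CPM in the labelled WT libraries. No marker of these lists was at 0 in every library. In bulk tissue, fewer cells of a type and less RNA per cell cannot be told apart. Values of these marker lists without those libraries are given with the lists.

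**Figure D1:**
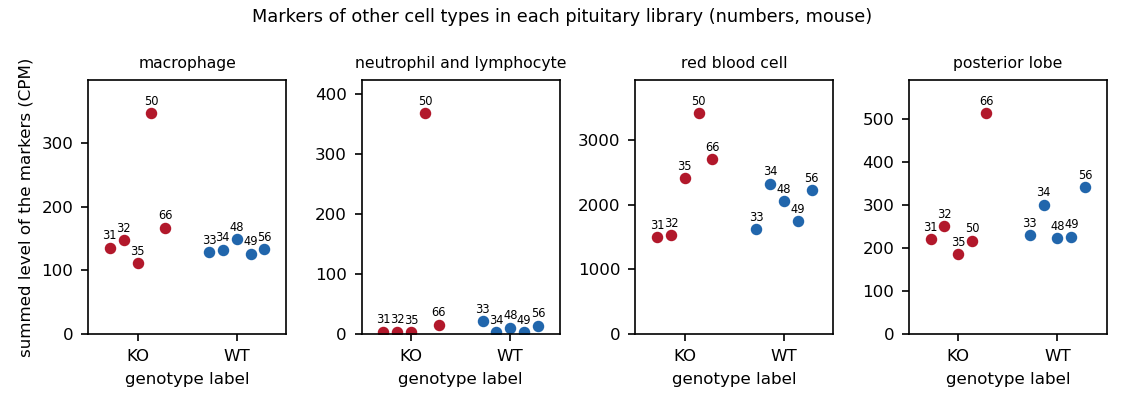
Summed level (CPM, linear axis from 0) of the markers of 4 other cell types in each of the 10 pituitary libraries, by genotype label, with the mouse number above each point. Mouse 50 is highest for macrophage markers (346.5 CPM), neutrophil and lymphocyte markers (368.1 CPM) and red blood cell markers (3417 CPM), and mouse 66 for posterior lobe markers (514.7 CPM).

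The targeted gene went against the labels' plain reading. Klf14 read 38.04, 34.5, 32.5, 31.6 and 30.2 CPM in the labelled KO libraries and 18.8, 13.9, 15.97, 17.4 and 17.2 CPM in the labelled WT libraries, from raw counts of 417 to 679 and 196 to 304. The groups did not overlap, and the labelled KO mean was the higher by 2.01-fold (log2 fold change 1.004, SE 0.0862, edgeR adjusted p = 7.645e-05). Reads were summed over one counted exon that holds the coding sequence and the untranslated ends, at chromosome 6, 30956021 to 30958990 on the minus strand (mm10), so a loss of the coding part alone could go unseen in the sum. The labels are used as given below, and every direction is that of libraries labelled KO over libraries labelled WT.

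Over the whole transcriptome the labelled groups differed at few genes and mostly by small amounts. Of 16389 genes tested, 90 passed an adjusted p of 0.05 in edgeR's quasi-likelihood test, which is 0.549%. There were 68 higher in labelled KO (0.415%) and 22 lower (0.134%). The change was under 1.5-fold for 58 of them, between 1.5-fold and 2-fold for 24, and 2-fold or more for 8. Those 8 were Klhl1, Galnt5, Pcdh10, Cldn7 and Klf14 on the higher side and Klk1, Vwde and Muc19 on the lower side. Among all tested genes the median log2 fold change was 0.0036 and 51.2% were positive, against 68 of 90 among the calls.

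Called genes lay at ordinary levels, with mean CPM from 1.79 to 229.1 and a median of 24.5, against a median of 22.3 over all tested genes. In each of the 90, the 5 labelled KO and 5 labelled WT values did not overlap, which held for 464 tested genes (2.83%) in all. An unadjusted p under 0.05 was reached by 1792 genes (10.9%). Without the library of mouse 50, 112 genes were called, of which 75 were among the 90, and without mice 50 and 66 together 58 were called, of which 44 were among the 90. Leaving out labelled KO mouse 32 gave 55 calls, labelled WT mouse 49 gave 50 and labelled WT mouse 56 gave 51. Fold changes of the 90 without both mouse 50 and mouse 66 were 0.781 to 1.23 times those with them, with a median ratio of 1.01.

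**Figure D2:**
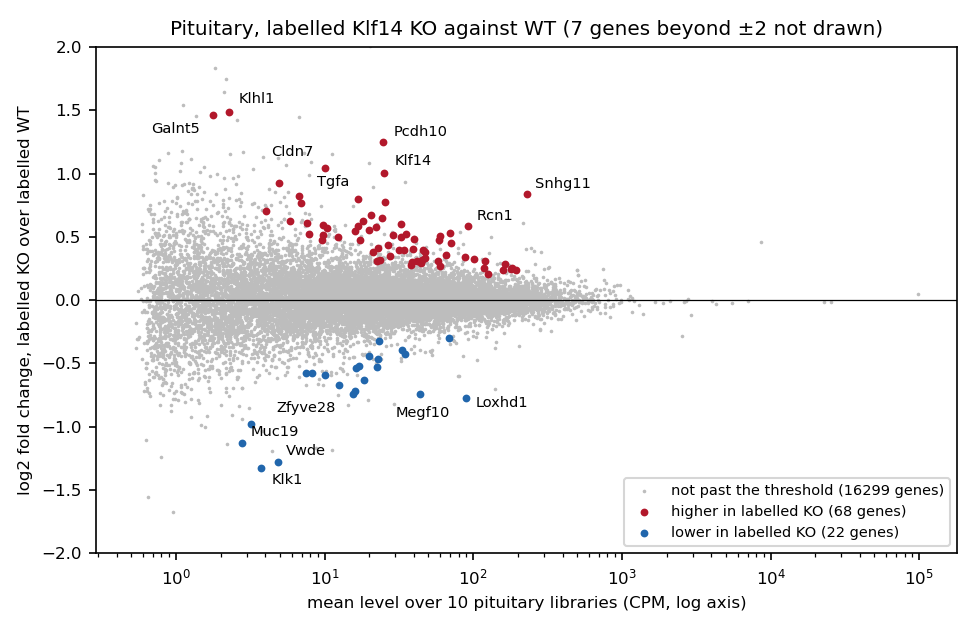
Mean level over the 10 pituitary libraries (CPM, log axis) against the log2 fold change of labelled KO over labelled WT for each tested gene, with 68 genes higher in labelled KO in red, 22 lower in blue and the rest in grey. Called genes lie between 1.79 and 229.1 CPM, and 7 genes beyond 2 on the log2 scale, none of them called, are outside the frame.

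**Figure D3:**
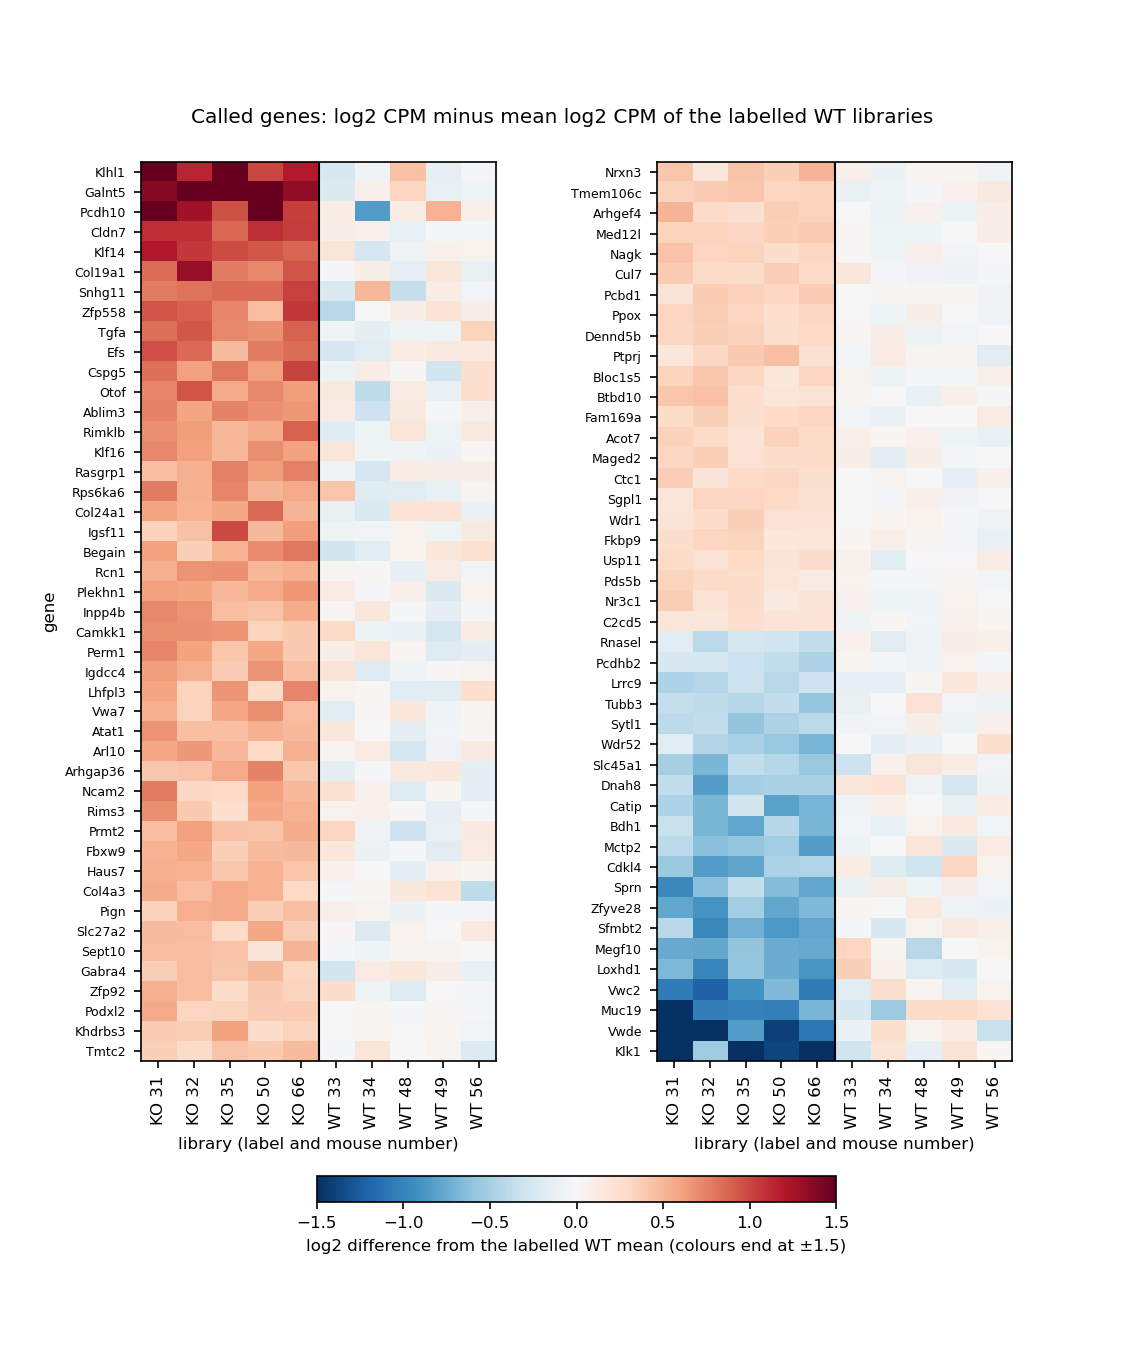
Of the 90 called genes, 89 in rows and the 10 pituitary libraries in columns, coloured by log2 CPM minus the mean log2 CPM of the 5 labelled WT libraries. Rows run from the largest positive to the largest negative log2 fold change, and in each of the 68 upper rows every labelled KO library lies above every labelled WT library, and in the 21 lower rows below.

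The gene with the smallest p was Cldn7, which encodes a claudin, a membrane protein of epithelial tight junctions and basolateral contacts (chromosome 11, 69964779 to 69967886 on the plus strand). Cldn7 read 14.2, 13.98, 11.9, 14.1 and 13.6 CPM in the labelled KO libraries and 7.06, 6.87, 6.08, 6.48 and 6.41 CPM in the labelled WT libraries. The lowest labelled KO library, mouse 35, still lay well above the highest labelled WT library. The ratio of means was 2.06-fold (log2 fold change 1.04, SE 0.0895, edgeR adjusted p = 7.64e-05). It was the only one of 26 tested genes of tight and adherens junctions to be called, against 0.549% of all tested genes. This list and those below were chosen with earlier results of these data known. Epcam, an epithelial adhesion molecule that binds claudin-7, read 338 ± 38.04 against 336 ± 22.2 CPM (SD, n = 5 each) and did not pass (edgeR adjusted p = 0.972).

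Genes of the endoplasmic reticulum and its glycan machinery followed. Rcn1 encodes reticulocalbin-1, which holds calcium in the lumen of the endoplasmic reticulum (chromosome 2, 105385948 to 105399319 on the minus strand), and read 108, 118, 119, 104 and 107 CPM against 75.96, 74.7, 67.9, 80.4 and 71.6 CPM. All labelled KO libraries were above all labelled WT libraries, with a log2 fold change of 0.59 (SE 0.0561, edgeR adjusted p = 2.04e-04). Its relatives in the CREC family did not pass: Rcn2 had a log2 fold change of -0.03, Rcn3 of 0.20, Calu of 0.04 and Sdf4 of -0.04 (edgeR adjusted p from 0.145 for Rcn3 to 0.924 for Rcn2). Pign encodes the transferase that adds phosphoethanolamine to the first mannose of glycosylphosphatidylinositol anchors (chromosome 1, 105518422 to 105663676 on the minus strand), and read 75.9, 86.9, 88.05, 76.2 and 81.3 CPM against 62.96, 62, 55.9, 58.5 and 58.8 CPM. The groups were separated by a gap wider than the labelled WT range, and the log2 fold change was 0.45 (SE 0.0563, edgeR adjusted p = 0.00164). Of 27 tested genes of anchor synthesis, Pign was the one called, against 0.549% of all tested genes. The list had a median log2 fold change of 0.0308.

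Galnt5, one of the transferases that start mucin-type O-glycans (chromosome 2, 57998155 to 58039171 on the plus strand), was low in every library. It read 2.41, 2.65, 3.01, 2.73 and 2.35 CPM in the labelled KO and 0.805, 0.991, 1.17, 0.864 and 0.898 CPM in the labelled WT libraries. The lowest labelled KO value was still more than the highest labelled WT value, and the log2 fold change was 1.47 (SE 0.18, edgeR adjusted p = 0.00164). The more abundant transferases of the list, Galnt1 at 105 ± 3.16 against 107 ± 3.65 CPM and Galnt2 at 107 ± 4.59 against 108 ± 5.54 CPM (SD, n = 5 each), had log2 fold changes of -0.03 and -0.01. Muc19, a gel-forming mucin that carries such glycans, fell from 3.16, 2.55, 4.48, 4.54 and 4.30 CPM in the labelled WT to 1.01, 1.81, 1.83, 1.82 and 2.28 CPM in the labelled KO libraries (edgeR adjusted p = 0.0402). Its exons share bases with another gene, and its call was kept in 4 of the 10 fits that left out 1 library (edgeR adjusted p up to 0.128, without labelled WT mouse 49). Nagk, the kinase that salvages N-acetylglucosamine, rose with a log2 fold change of 0.33, and Fkbp9, a prolyl isomerase of the endoplasmic reticulum, with 0.25.

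In the list for endoplasmic reticulum folding and the unfolded protein response, 25 genes were tested singly and none was called. Their median log2 fold change was 0.0472, against 0.0036 over all tested genes, and 18 of 25 were positive. The summed level of the list read 6196, 6133, 6269, 6063 and 5955 CPM in the labelled KO libraries and 5914, 5698, 5881, 5814 and 5622 CPM in the labelled WT libraries. These sums did not overlap, which was so for 1 of the 44 lists summed and was noticed after the values were seen. The largest contributors were Hspa5, the chaperone BiP, at 824 ± 31.5 against 748 ± 38.5 CPM, and Hsp90b1, the chaperone GRP94, at 798 ± 28.1 against 713 ± 34.5 CPM (SD, n = 5 each, edgeR adjusted p = 0.193 and 0.102).

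The signalling genes with the smallest p were a growth factor and a negative regulator of the receptor it binds, that of epidermal growth factor. Tgfa encodes the ligand, transforming growth factor alpha (chromosome 6, 86195251 to 86275449 on the plus strand), and read 21.6, 23.4, 20.1, 19.7 and 22.6 CPM against 11.8, 11.2, 11.7, 11.7 and 15.4 CPM. Mouse 56 was the highest of the labelled WT libraries and still below every labelled KO library, and the log2 fold change was 0.80 (SE 0.0938, edgeR adjusted p = 0.00161). Zfyve28 encodes an endosomal protein known to promote degradation of the receptor (chromosome 5, 34194894 to 34288324 on the minus strand), and read 11.7, 10.8, 13.95, 11.7 and 12.7 CPM against 20.3, 19.8, 22.04, 19.2 and 18.7 CPM. All labelled KO libraries were below all labelled WT libraries, with a fall of 0.72 in log2 units (SE 0.0828, edgeR adjusted p = 0.00161).

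Of the other tested receptors and ligands of the family, none of 11 was called. Egfr, the receptor, stood at 69.4 ± 7.46 against 66.4 ± 8.73 CPM, and Egf, its founding ligand, at 84.1 ± 17.03 against 86.6 ± 13.7 CPM (SD, n = 5 each). Btc, for the ligand betacellulin, had a log2 fold change of -0.72 and did not pass (edgeR adjusted p = 0.236). Areg, Ereg and Epgn had too few counts to be tested.

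Other called signalling genes act on Ras, lipid and calcium signals. Efs, an adaptor of the Cas family that docks Src-type kinases, read 36.5, 33.6, 25.9, 31.7 and 33.2 CPM in the labelled KO and 15.7, 16.6, 20.2, 20.7 and 20.7 CPM in the labelled WT libraries (log2 fold change 0.78, SE 0.10, edgeR adjusted p = 0.00248). Rasgrp1, which activates Ras on diacylglycerol and calcium, read 19.4, 20.6, 23.9, 22.01 and 24.02 CPM against 13.7, 11.96, 15.3, 15.3 and 15.1 CPM (log2 fold change 0.62, edgeR adjusted p = 0.0046). Neither gene had overlapping groups. Inpp4b, a phosphatase of phosphatidylinositol 3,4-bisphosphate, rose by 0.57 on the log2 scale, and Igdcc4, a cell surface protein of the immunoglobulin superfamily, by 0.53. Camkk1, an activating kinase of calmodulin-dependent kinases, rose by 0.55, Rps6ka6, a ribosomal S6 kinase, by 0.61 and Ptprj, a receptor tyrosine phosphatase, by 0.31. These last 3 were kept in 2 or 3 of the 10 fits without 1 library.

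On the lower side, Klk1, the tissue kallikrein that releases kinins, read 1.79, 3.68, 1.38, 2.05 and 1.76 CPM in the labelled KO and 4.33, 6.09, 4.91, 6.12 and 5.45 CPM in the labelled WT libraries. Mouse 32 was the highest labelled KO library and lay below the lowest labelled WT library, and the fall was 1.32 in log2 units (SE 0.22, edgeR adjusted p = 0.0128, and up to 0.0528, without labelled WT mouse 49). Of the 10 tested kallikreins it was the one called, against 0.549% of all tested genes, and 7 of 10 had a positive log2 fold change. Vwc2, a secreted antagonist of bone morphogenetic proteins, read 2.02, 1.81, 2.23, 2.66 and 2.02 CPM against 3.71, 4.95, 4.30, 3.74 and 4.36 CPM (log2 fold change -0.98, edgeR adjusted p = 0.00886). None of the 27 tested genes of activin, TGF-beta and BMP signalling was called, with a median log2 fold change of 0.0318.

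Since GC boxes and CACCC motifs are what KLF and SP factors bind, promoters of called genes are shown here. The 250 bases before the RefSeq start (GRCm38.p6) are printed for 5 genes with large changes, 3 higher and 2 lower, 5′ to 3′ on the gene's strand. Capitals mark each GGGCGG (a GC box) and each CACCC, read on either strand.
Cldn7, higher, chr11:69964529-69964778, plus strand: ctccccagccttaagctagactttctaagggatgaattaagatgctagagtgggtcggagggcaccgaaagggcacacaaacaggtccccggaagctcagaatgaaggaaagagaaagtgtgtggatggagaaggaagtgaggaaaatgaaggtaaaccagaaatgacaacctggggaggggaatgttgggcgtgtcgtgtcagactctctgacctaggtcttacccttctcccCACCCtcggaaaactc
Tgfa, higher, chr6:86194972-86195221, plus strand: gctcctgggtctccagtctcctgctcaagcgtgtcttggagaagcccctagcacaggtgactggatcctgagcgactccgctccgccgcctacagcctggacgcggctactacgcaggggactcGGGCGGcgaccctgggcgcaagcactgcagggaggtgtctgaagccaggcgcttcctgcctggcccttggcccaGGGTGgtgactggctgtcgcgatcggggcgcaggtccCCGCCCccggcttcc
Galnt5, higher, chr2:57997905-57998154, plus strand: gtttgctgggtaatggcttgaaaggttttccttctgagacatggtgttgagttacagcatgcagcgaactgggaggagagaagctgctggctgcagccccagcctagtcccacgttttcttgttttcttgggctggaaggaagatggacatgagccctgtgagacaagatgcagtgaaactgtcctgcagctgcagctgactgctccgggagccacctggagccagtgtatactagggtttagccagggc
Zfyve28, lower, chr5:34288325-34288574, minus strand: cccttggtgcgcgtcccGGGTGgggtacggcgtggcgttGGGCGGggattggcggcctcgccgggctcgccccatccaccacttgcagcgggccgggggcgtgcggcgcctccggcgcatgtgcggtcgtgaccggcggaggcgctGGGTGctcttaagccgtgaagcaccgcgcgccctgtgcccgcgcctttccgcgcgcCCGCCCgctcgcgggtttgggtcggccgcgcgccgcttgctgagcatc
Vwde, lower, chr6:13224966-13225215, minus strand: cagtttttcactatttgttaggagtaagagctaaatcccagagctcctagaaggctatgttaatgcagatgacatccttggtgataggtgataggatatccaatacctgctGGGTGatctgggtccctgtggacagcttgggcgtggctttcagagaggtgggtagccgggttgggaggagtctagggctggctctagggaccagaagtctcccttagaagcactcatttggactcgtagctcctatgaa
GGGCGG was found 2 times in the windows of Tgfa and Zfyve28 and not in the other 3. CACCC was found 2 times for Zfyve28, 1 time each for Cldn7, Tgfa and Vwde, and not for Galnt5. Over the 11801 tested genes that had a window, 56.6% held GGGCGG and 58% held CACCC, so either motif is common. A match describes these letters only. The called sets were not compared with all windows, because 14 of the 22 lower genes (63.6%) had one, under the 80% needed.

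Called genes of the cytoskeleton moved both ways. Ablim3, an actin-binding LIM protein, read 26.4, 23.7, 26.4, 25.4 and 24.8 CPM in the labelled KO and 17.1, 12.7, 17.3, 15.6 and 16.6 CPM in the labelled WT libraries (log2 fold change 0.67, SE 0.0824, edgeR adjusted p = 0.00164). Atat1, the acetyltransferase of alpha-tubulin in microtubules, read 37.6, 32.4, 32.3, 34.1 and 33.3 CPM against 26.7, 23.6, 21.4, 23.04 and 23.9 CPM (log2 fold change 0.52, edgeR adjusted p = 0.00291). Tubb3, the beta-tubulin typical of neurons, read 31.1, 30.6, 29.7, 30.9 and 26.6 CPM against 36.96, 40.1, 46.1, 38.6 and 37.9 CPM and fell by 0.42 (edgeR adjusted p = 0.0114). None of the 3 had overlapping groups. Among 23 tested tubulins and tubulin enzymes Atat1 and Tubb3 were the ones called, against 0.549% of all tested genes. The abundant Tuba1a and Tubb5 had log2 fold changes of -0.12 and -0.09. Wdr1, which speeds actin disassembly, rose by 0.25, Sept10, a septin, by 0.41 and Haus7, a subunit of the augmin complex, by 0.48. Some genes known from motile cilia or flagella fell: Dnah8, an axonemal dynein, by 0.54, Wdr52, now named Cfap44, by 0.46 and Catip by 0.57. These 3 were picked out after their values were seen and were kept in 1 to 3 of the 10 fits without 1 library.

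Several called genes act in adhesion and matrix, a grouping made from the calls. The list of collagen chains, too, was chosen with earlier results of these data known. Among 44 tested collagen chains 3 were called higher in labelled KO and none lower, against 0.415% and 0.134% of all tested genes. Their median log2 fold change was 0.0463 (-0.0738 without mice 50 and 66). Col24a1, a fibrillar chain, read 38.5, 36.6, 38.3, 46.4 and 36.6 CPM against 23.8, 22.1, 29.5, 29.6 and 24.2 CPM (log2 fold change 0.60, edgeR adjusted p = 0.00767). Col19a1, a chain of the fibril-associated class, read 6.05, 8.38, 5.77, 5.62 and 6.53 CPM against 3.34, 3.61, 3.13, 3.82 and 3.14 CPM (log2 fold change 0.93, edgeR adjusted p = 0.00661). For both, every labelled KO library was above every labelled WT library. Col4a3, a basement membrane chain, rose by 0.47 (edgeR adjusted p = 0.0451) and its partner chain Col4a4 had 0.34 without passing (edgeR adjusted p = 0.099). The fibrillar chain Col1a2 had -0.36 (edgeR adjusted p = 0.0535).

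Megf10, a receptor for engulfment of cell debris with repeats like those of epidermal growth factor, read 32.3, 31.9, 36.2, 32.6 and 32.2 CPM in the labelled KO and 67.9, 56.1, 40.96, 54.4 and 56.6 CPM in the labelled WT libraries. The labelled KO values were close together and all below the lowest labelled WT value, a fall of 0.74 in log2 units (SE 0.10, edgeR adjusted p = 0.00661). Loxhd1, a PLAT-domain protein known from the stereocilia of hair cells, read 69.8, 56.5, 74.4, 66.2 and 60.4 CPM against 142, 116, 96.7, 94.7 and 112 CPM (log2 fold change -0.78, edgeR adjusted p = 0.0101). Vwde, a secreted protein with von Willebrand factor D and epidermal growth factor domains, read 2.24, 2.35, 3.80, 2.58 and 3.20 CPM against 6.38, 8.07, 7.06, 7.42 and 5.39 CPM (log2 fold change -1.28, edgeR adjusted p = 0.00247). In all 3 genes the groups were apart.

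Other called genes of cell contact were led in size by a protocadherin. Pcdh10, a delta-protocadherin, had the widest spread of the group, with 42.5, 33.8, 27.3, 42.6 and 28.8 CPM in the labelled KO and 15.2, 7.86, 15.2, 20.2 and 14.9 CPM in the labelled WT libraries. Its log2 fold change was 1.25 (SE 0.22, edgeR adjusted p = 0.0415), its exons share bases with another gene, and its call was kept in 2 of the 10 fits without 1 library (edgeR adjusted p up to 0.116, without labelled WT mouse 56). Ncam2, a neural cell adhesion molecule, rose by 0.50, Igsf11, an immunoglobulin superfamily adhesion molecule, by 0.59 and Nrxn3, a presynaptic neurexin, by 0.38. Cspg5, a transmembrane chondroitin sulfate proteoglycan, rose by 0.77 and Podxl2, a sialomucin related to podocalyxin, by 0.40. Pcdhb2, a clustered protocadherin, fell by 0.32.

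Of 31 tested genes of secretory granules and exocytosis, 1 was called, against 0.549% of all tested genes. Sytl1, a synaptotagmin-like effector of Rab27 at granules, read 17.5, 17.8, 15.3, 16.7 and 17.4 CPM in the labelled KO and 22.1, 22.4, 24.3, 21.8 and 24.2 CPM in the labelled WT libraries, a fall of 0.44 (SE 0.0676, edgeR adjusted p = 0.00767). The granule proteins Chgb and Scg2 stood at 2802 ± 43.4 against 3047 ± 254 CPM and 2620.1 ± 192 against 2639 ± 266 CPM (SD, n = 5 each) and did not pass. Outside the list, Rims3, a presynaptic active zone protein, rose by 0.50, Otof, the calcium sensor of hair cell exocytosis, by 0.70 and Gabra4, a GABA-A receptor subunit, by 0.40. The call of Otof was lost in every fit without 1 library (edgeR adjusted p up to 0.134, without labelled KO mouse 32). None of 37 tested calcium and sodium channel genes and none of 66 tested potassium channel genes was called. Their median log2 fold changes were 0.0023 and 0.0151. An unadjusted p under 0.05 in edgeR's test was reached by 12 of the 37 and 11 of the 66, against 10.9% of all tested genes. Among the 37, log2 fold changes ran from -0.7284 to 0.8185, with 19 positive.

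Called regulators in the nucleus included Sfmbt2, an imprinted Polycomb group gene (chromosome 2, 10370451 to 10595253 on the plus strand). It read 14.5, 9.88, 11.7, 10.6 and 11.3 CPM in the labelled KO and 18.9, 16.4, 20.02, 21.2 and 20.4 CPM in the labelled WT libraries, a fall of 0.74 (SE 0.10, edgeR adjusted p = 0.0046). Med12l, a paralogue of a subunit of the Mediator kinase module, read 97.4, 97.8, 95.5, 98.7 and 100.2 CPM against 79.1, 73.7, 73.7, 77.6 and 82.6 CPM (log2 fold change 0.34, edgeR adjusted p = 0.00247), and its exons share bases with another gene. Both genes had groups apart. Khdrbs3, an RNA-binding regulator of splicing, rose by 0.39, Zfp558, a zinc finger gene, by 0.82 and Prmt2, an arginine methyltransferase, by 0.49. Of the 23 tested imprinted genes elsewhere in the genome, a list that does not hold Sfmbt2, none was called, and the most abundant, Meg3, had a log2 fold change of -0.02.

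In the family of KLF and SP factors 2 of 21 tested genes were called, Klf14 and Klf16, against 0.549% of all tested genes. Klf14 is the targeted gene itself, around which the list was made. The median log2 fold change was -0.0785. Klf16, which shares with Klf14 a domain that binds the corepressor Sin3, read 7.56, 7.05, 6.49, 7.44 and 6.98 CPM in the labelled KO and 5.20, 4.39, 4.42, 4.32 and 4.68 CPM in the labelled WT libraries (log2 fold change 0.62, SE 0.11, edgeR adjusted p = 0.0138). Its groups were apart. The abundant Sp1, Sp3 and Sp4 had log2 fold changes of -0.09, -0.09 and -0.12 and did not pass. Among 7 tested mouse counterparts of genes reported downstream of human KLF14, Prmt2 was the one called, against 0.549% of all tested genes.

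Among called enzymes of metabolism Rimklb had the smallest p. Rimklb, a ligase that joins glutamate to N-acetylaspartate, read 30.4, 28.9, 26.5, 27.5 and 34.6 CPM in the labelled KO and 16.5, 17.9, 21.2, 17.9 and 20.5 CPM in the labelled WT libraries, with groups apart (log2 fold change 0.65, SE 0.0885, edgeR adjusted p = 0.0032). Ppox, an enzyme of haem synthesis, rose by 0.32, Slc27a2, a fatty acid transport protein and acyl-CoA synthetase, by 0.44, Acot7, an acyl-CoA thioesterase, by 0.29 and Sgpl1, the sphingosine-1-phosphate lyase, by 0.27. Bdh1, a ketone body dehydrogenase, fell by 0.57 and Slc45a1, a sugar transporter, by 0.52. None of 20 tested genes of cholesterol synthesis and uptake and none of 77 tested oxidative phosphorylation genes was called, with median log2 fold changes of 0.1298 (0.0131 without mouse 31) and 0.0404.

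Several more calls were kept in all 10 fits without 1 library. Cul7, a cullin scaffold of ubiquitin ligases, rose by 0.32, Fbxw9, an F-box protein, by 0.48, Arhgap36, an inhibitor of protein kinase A, by 0.51, Dennd5b, an exchange factor of Rab GTPases, by 0.31 and Tmem106c by 0.36. Sprn, for the prion-like protein Shadoo, fell by 0.67 and Lrrc9 by 0.39. Exons of Fbxw9 and Sprn share bases with other genes.

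The most abundant called transcript was a noncoding RNA, Snhg11. It read 276, 283, 291, 291 and 327 CPM in the labelled KO and 138, 227, 127, 174 and 157 CPM in the labelled WT libraries. Mouse 34 stood above the other labelled WT libraries and below every labelled KO library, the log2 fold change was 0.84 (SE 0.14, edgeR adjusted p = 0.0348), and the call was kept in 2 of the 10 fits without 1 library (edgeR adjusted p up to 0.103, without labelled WT mouse 56).

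**Figure D4:**
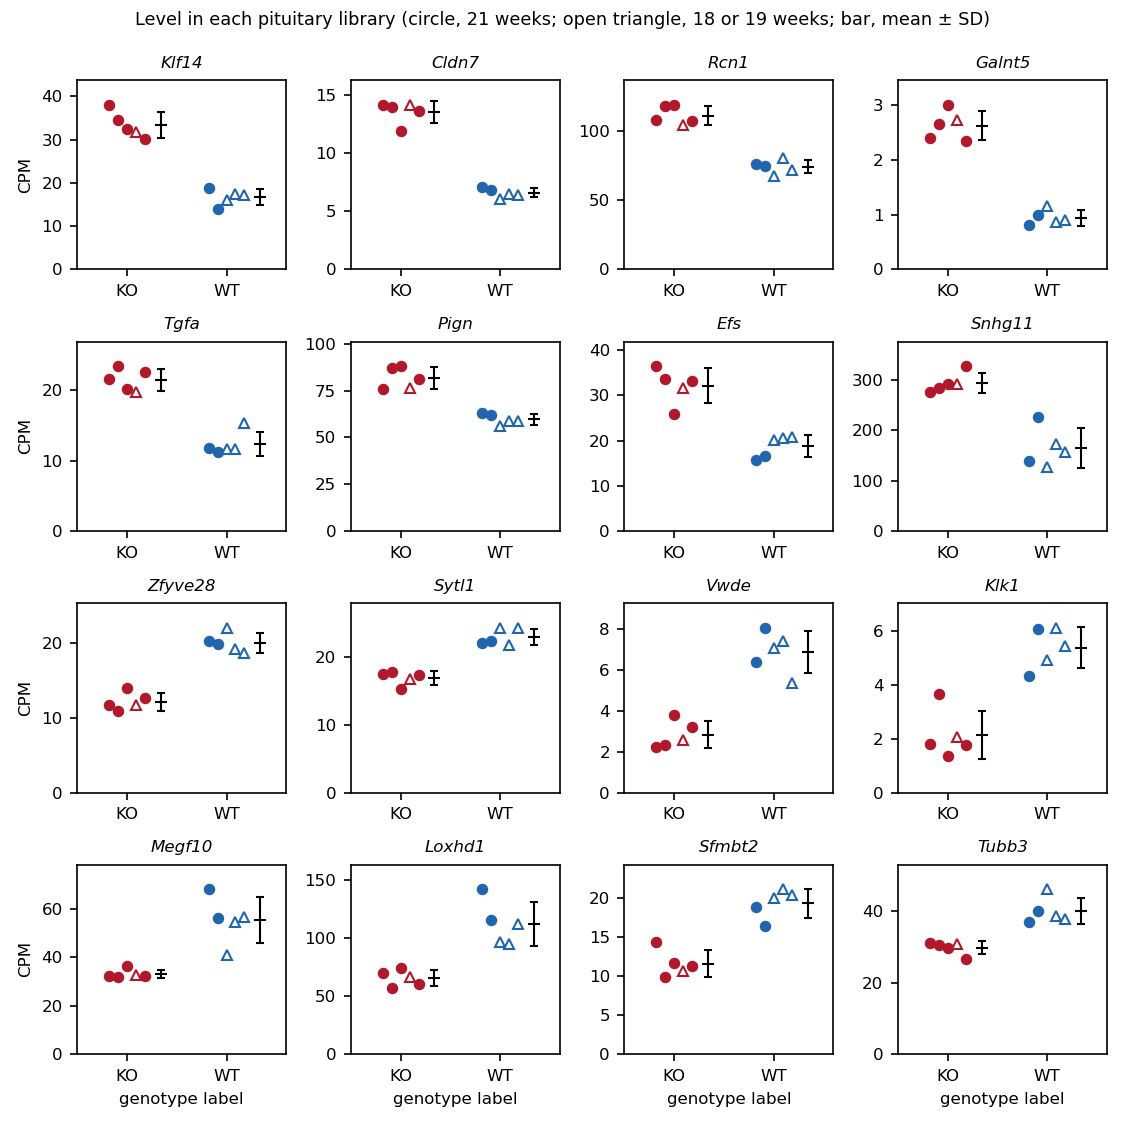
Level (CPM, linear axes from 0) of 16 named genes in each pituitary library by genotype label, with circles for mice of 21 weeks, open triangles for mice of 18 or 19 weeks and bars for the mean ± SD of 5 libraries. For each gene the labelled KO and labelled WT points do not overlap, and among labelled WT libraries Tgfa is highest in mouse 56 (15.4 CPM) and Megf10 in mouse 33.

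No defining transcript of somatotrophs, lactotrophs, gonadotrophs or thyrotrophs passed the test. Of 6 tested somatotroph, 5 lactotroph, 7 gonadotroph and 6 thyrotroph genes none was called. With 0.549% of all tested genes called, lists this short would seldom hold a call. An unadjusted p under 0.05 in edgeR's test was reached by 1, 3, 2 and 1 of them in that order, against 10.9% of all tested genes. Log2 fold changes of the lactotroph genes ran from -0.16 to 1.0942. Cga, the alpha subunit shared by thyrotropin and the gonadotropins, read 2112, 2486, 2378, 2236 and 2309 CPM in the labelled KO and 2709, 3062, 2561, 2604 and 3099 CPM in the labelled WT libraries and came closest (log2 fold change -0.28, SE 0.0602, edgeR adjusted p = 0.0558). Its groups did not overlap, DESeq2 called it (adjusted p = 0.00312), and edgeR called it without labelled WT mouse 48 (adjusted p = 0.0448). The beta subunits did not pass, with log2 fold changes of -0.23 for Lhb, 0.12 for Fshb and 0.41 for Tshb (edgeR adjusted p = 0.269, 0.839 and 0.742). Pou1f1, the lineage factor of somatotrophs, lactotrophs and thyrotrophs, stood at 137 ± 15.3 against 138 ± 6.54 CPM, and Nr5a1, that of gonadotrophs, at 24.2 ± 1.83 against 27.2 ± 5.10 CPM (SD, n = 5 each).

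The list for corticotrophs and melanotrophs had 1 call among 10 tested genes, against 0.549% of all tested genes, and the gene called was not a hormone gene. Counts of the whole gland do not place that call in a cell type. Nr3c1, the glucocorticoid receptor through which adrenal steroids restrain Pomc, read 229, 206, 215, 196 and 204 CPM in the labelled KO and 186, 170.4, 173, 185 and 178 CPM in the labelled WT libraries (log2 fold change 0.24, SE 0.0478, edgeR adjusted p = 0.0415). The groups were apart by a narrow margin, and the call was kept in 2 of the 10 fits without 1 library (edgeR adjusted p up to 0.117, without labelled WT mouse 48). None of 9 tested glucocorticoid response genes was called, with a median of 0.1842 that was -0.0515 without mouse 35. Pomc had a log2 fold change of 0.46 with an SE of 0.25, Pcsk2, a prohormone convertase, of 0.38 and Oacyl, an acyltransferase-like gene, of 0.61 (edgeR adjusted p = 0.565, 0.329 and 0.145). Tbx19 and Pax7, lineage factors of corticotrophs and melanotrophs, had 0.10 and 0.23.

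Other cell types of the gland gave no call in any list. The 9 stem and folliculostellate genes had a median of -0.0268, with Sox2 at 22.4 ± 3.77 against 24.02 ± 2.87 CPM and S100b at 2.22 ± 0.488 against 2.24 ± 0.625 CPM (SD, n = 5 each). The 11 endothelial genes had a median of -0.0009 with 5 positive, and the 11 fibroblast and mural genes of 0.0237 with 6 positive. Without mouse 66 these medians were -0.0329 with 1 positive and -0.1094 with 3 positive. All 13 macrophage genes were positive, with a median of 0.3629 and none called. Without mouse 50, 11 were positive and the median was 0.0787, and without mice 50 and 66 it was -0.0396 with 5 positive. Of the 9 posterior lobe genes 8 were positive, with a median of 0.1659. Without mouse 66 the direction turned, with 3 positive and a median of -0.0994. Avp, for vasopressin, read 3.53, 4.04, 3.47, 4.48 and 9.53 CPM against 3.71, 2.69, 1.84, 2.66 and 3.91 CPM, and Oxt, for oxytocin, had a log2 fold change of 0.09.

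Immediate early genes, which respond within minutes to stimulation or handling of tissue, had the lowest median of the 44 lists, -0.3537 over 14 tested genes, with 3 positive and none called. Without labelled WT mouse 33 it was -0.2125 and without labelled KO mouse 35 -0.2258. Their summed level read 1046, 984, 521, 858 and 684 CPM in the labelled KO and 1440.0, 953, 1231, 791 and 956 CPM in the labelled WT libraries, and the groups overlapped. These values were lowest in labelled KO mouse 35 and highest in labelled WT mouse 33. Fos stood at 107 ± 50.7 against 174 ± 69.04 CPM and Egr1 at 62.9 ± 23.8 against 95.3 ± 14.2 CPM (SD, n = 5 each, edgeR adjusted p = 0.584 and 0.455).

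Across 44 lists, 747 of 832 distinct genes were tested and 18 were called, 13 higher and 5 lower, or 2.41% against 0.549% of all tested genes. Several lists were written around genes already known to be called here, so that share is no evidence about the lists. A call fell in 15 lists, and 29 had none. In 20 of the 44 lists the sign of the median turned in at least 1 of the 10 fits without 1 library.

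**Figure D5:**
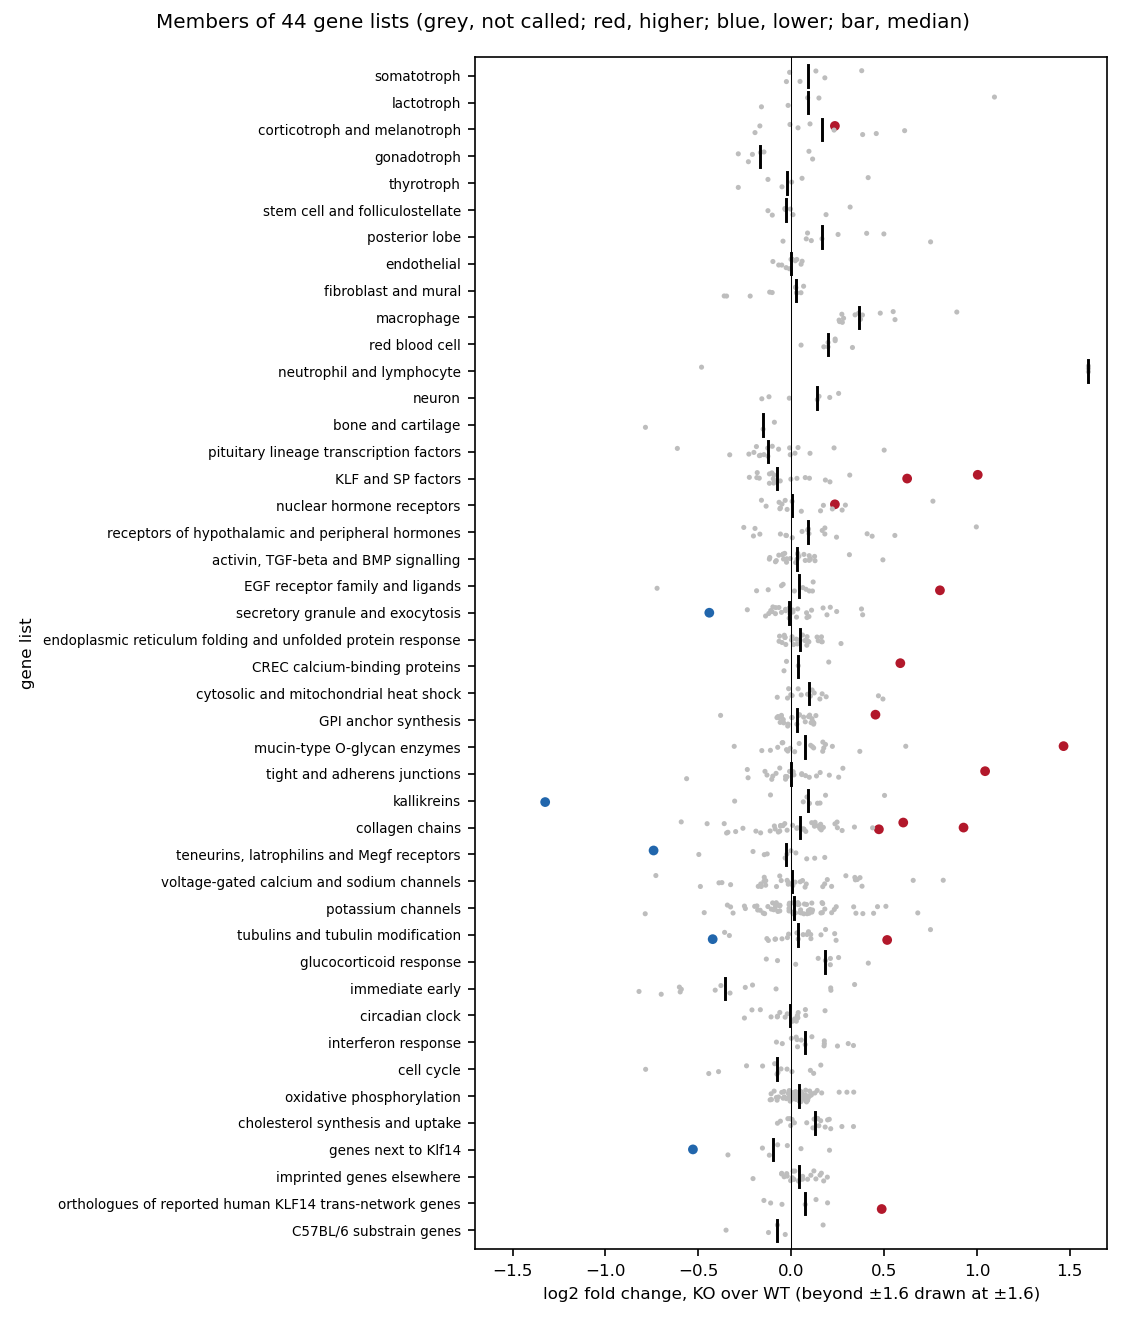
Log2 fold change of labelled KO over labelled WT for each tested member of 44 gene lists, with grey for members not called, red for those higher and blue for those lower in labelled KO, and a black bar at the list median. Most calls are single members far from their list's median, Nr3c1 being close to it, with 3 in the collagen chains and 2 each in the KLF and SP factors and the tubulins, and the neutrophil and lymphocyte median of 3.352 over 4 tested genes, drawn at the axis limit, was -0.6689 without mouse 50.

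Around Klf14 on chromosome 6, 18 other genes within 1 Mb were tested, and not all of them are reported here. Klhdc10, 0.554 Mb away, had a log2 fold change of -0.19 and did not pass in the main fit (edgeR adjusted p = 0.0678), though it passed under some alternative. Copg2 and Mest, imprinted genes of the same region, had -0.12 and -0.15 (edgeR adjusted p = 0.696 and 0.763). Over the whole chromosome 10 of 788 tested genes were called (1.27%), against 80 of 15601 (0.513%) elsewhere, and shares on the X chromosome (6 of 581, 1.03%) were similar. The outermost called genes of chromosome 6 were Vwde, 17.77 Mb on one side of Klf14, and Dennd5b, 118.032 Mb on the other. This span does not say whether a gene close to Klf14 was called.

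Of the 90 called genes, 6 stood in 3 pairs of direct neighbours within 50 kb, each pair facing tail to tail and both members higher. Perm1, known as a regulator of muscle oxidative metabolism, and Plekhn1 lie 148 bases apart on chromosome 4, and had log2 fold changes of 0.54 and 0.58. Plekhn1 read 27.1, 26.6, 24.8, 26.03 and 27.7 CPM against 19.2, 17.2, 18.5, 15.1 and 18.3 CPM, with groups apart (edgeR adjusted p = 0.00164). Pcbd1, a pterin dehydratase, and Sgpl1 lie 4.312 kb apart on chromosome 10, and had 0.32 and 0.27. Zfp92 and Haus7 lie 10.327 kb apart on the X chromosome, and had 0.40 and 0.48. The counting used no strand option, so reads that run on past the end of one member into the other cannot be assigned to their strand.

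Calls differed in how much they rested on single libraries. Of the 90, 41 were called in all 10 fits that left out 1 library (30 higher, 11 lower), 12 in 5 to 9 of them, 35 in 1 to 4, and 2, Ctc1 and Otof, in none. Klk1, Nrxn3, Slc27a2, Perm1, Wdr1, Klhl1, Haus7 and Sgpl1 were among the 12, and Snhg11, Pcdh10, Nr3c1, Col4a3, Prmt2, Fkbp9, Muc19, Camkk1, Rims3, Gabra4, Bdh1, Acot7, Ncam2, Igsf11, Catip, Dnah8, Wdr52, Pcbd1, Pcdhb2, Ptprj, Slc45a1, Zfp92 and Rps6ka6 among the 35. With age as a covariate 38 of the 90 stayed past the threshold, 33 of them among the 41, and all 90 kept their sign with a median ratio of fold changes of 0.975. Cldn7 then had a log2 fold change of 1.02, Rcn1 of 0.55, Tgfa of 0.85 and Zfyve28 of -0.74. Among mice of 21 weeks only, 4 labelled KO and 2 labelled WT, fold changes of the 90 were 0.65 to 1.35 times those of all libraries. All 90 kept their sign there, which says little, because none of them had overlapping groups in the full set. In that smaller fit 5 genes were called, 4 of them among the 90: Megf10, Rcn1, Col24a1 and Tgfa.

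In iWAT the same labels gave no call among 16105 tested genes (89 with an unadjusted p under 0.05 in edgeR's test). Of the 90 pituitary genes 74 were tested there, and 43 of those 74 had the sign they had in the pituitary. A test of the difference between tissues, over all 20 libraries in 1 fit, called none of 17731 genes in edgeR (427 with an unadjusted p under 0.05, and 1, Pign, called by DESeq2). Pign in iWAT stood at 71.7 ± 1.80 against 71.2 ± 2.12 CPM, Rcn1 at 32.99 ± 3.36 against 31.1 ± 7.61 CPM, Tgfa at 10.1 ± 6.03 against 11.7 ± 3.19 CPM and Klf16 at 14.4 ± 2.81 against 15.3 ± 1.21 CPM (SD, n = 5 each). For the labels within the pituitary, the fit over all 20 libraries called 1 gene, Pign, against the 90 of the pituitary fitted alone. It could therefore hardly call a difference between tissues. A p that misses the threshold does not show that the tissues respond alike.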

How the data were processed

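The authors deposited whole-number read counts per gene for each library, not normalized, made with featureCounts over the exons of a UCSC mm10 annotation, with primary alignments only and a read counted for every gene it overlapped, per the file headers. Alignment with STAR 2.4.0 and counting with featureCounts 1.4.4 are listed in the submitters' processing notes. No strand option stands in the headers, and exons of 3147 of the 24062 genes overlap those of some other gene.

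The 10 pituitary libraries, at 13.6 to 17.6 M counts, were fitted alone in edgeR 4.0.16 (R 4.3.3) with filterByExpr, TMM scaling, a robust quasi-likelihood fit and test and no covariate, and p-values were adjusted by Benjamini-Hochberg over all tested genes with a threshold of 0.05. Log2 fold changes compare labelled KO with labelled WT, and the SE is the log2 fold change over the square root of F. CPM values use TMM-scaled library sizes, and counting error alone is large for genes near 1 CPM. Every pair of libraries in a group differed by more than sampling noise, so all were kept as separate samples.

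The fit was tested on simulated data before use. The tissue contrast used all 20 libraries in 1 fit. Alternatives were other scaling, filters, DESeq2 1.42.0, limma 3.58.1 (voom), age, an age subset, a threshold of 0.1 and leaving out libraries. Lists were described by counts and medians, with no set test. The members, lists and tests were chosen with earlier results of these data known. Named genes are Klf14, cell type markers, the 15 higher and 15 lower calls with the smallest p, calls of at least 2-fold, calls kept in all 10 fits that left out 1 library, called list members and the 2 most abundant members of each list. Other named genes were chosen after their values were seen. Some genes are not reported here. Promoter windows are from RefSeq (GRCm38.p6).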

Additional observations from a re-analysis of the deposited data

Results flagged for a closer look

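Of 288 groups of 5 libraries checked (named genes and summed marker lists), 16 held a library far from its 4 fellows by Dixon's test. The critical value used, 0.71, is meant to flag about 1 in 20 groups by chance. Many of these groups belong to called genes, picked by a test that favours little spread, and groups share libraries. Whether the number flagged differs from chance was therefore not tested, for genes or for marker sums.

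The marker sums of other cell types were flagged in 2 labelled KO libraries. Mouse 50 was highest for macrophage markers (346.5 CPM, next 166.9 CPM) and for neutrophil and lymphocyte markers (368.1 CPM, next 15.9 CPM). Mouse 66 was highest for posterior lobe markers (514.7 CPM, next 251.7 CPM) and for Avp (9.53 CPM, next 4.48 CPM), and lowest for Scg2, a granule protein (2291 CPM, next 2640.0 CPM).

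Among the called genes, mouse 50 was the lowest labelled KO library for Sept10 (22.5 CPM) and the highest for Col24a1 (46.4 CPM). Mouse 35 was lowest for Cldn7 (11.9 CPM) and highest for Megf10 (36.2 CPM), and mouse 31 was highest for Podxl2 (43.6 CPM). Each of these values stayed on its own side of the labelled WT libraries. In the labelled WT group, mouse 48 was highest for Klhl1 (1.597 CPM), mouse 33 for Cul7 (101.1 CPM) and mouse 56 for Tgfa (15.4 CPM), and each stayed below the labelled KO libraries.

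Among genes not called, labelled KO mouse 32 was highest for Fshb (665.8 CPM, next 525.9 CPM), labelled KO mouse 35 for Tbx19 (86.6 CPM, next 66.8 CPM) and labelled WT mouse 33 for Epcam (373.9 CPM, next 332.4 CPM).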

How the results depend on the processing

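The number of called genes, 90 (68 higher, 22 lower), moved with the test and the libraries used. DESeq2 called 288 (186 higher, 102 lower), a threshold of 0.1 called 192 (134 and 58), age as a covariate 44 (31 and 13), mice of 21 weeks only 5 (3 and 2) and 1 fit over all 20 libraries 1 (1 and 0, the gene being Pign). Leaving out each library in turn gave 50 to 112 calls, 37 to 84 higher and 12 to 28 lower. Leaving out labelled KO mice 50 and 66 together gave 58 (45 and 13). The fit of mice of 21 weeks has fewer samples, and the cause of the other moves was not tested. RLE scaling (93), the 20 most abundant genes left out (94), other filters (91 and 102) and limma voom (127) kept the count within 1.5 times. DESeq2 and voom each called all 90. Over the alternatives the called genes kept their direction and side of the threshold in 1298 values, fell short of it in 592 and reversed in 0. The 1298 include 90 values at the threshold of 0.1, which could not fall short. With groups that did not overlap, a called gene, Klf14 included, could hardly reverse in fits of the same libraries.

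Klf14 kept its direction throughout, with a log2 fold change of 1.045 in mice of 21 weeks (edgeR adjusted p = 0.0627) and 1.004 in the fit over 20 libraries (edgeR adjusted p = 1). The tissue contrast called 0 genes in edgeR, 1 with DESeq2 (Pign) and 1 with age as a covariate (Mmp8), and 0 without each mouse number in turn.

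No paired analysis was possible because the labelled KO and labelled WT pituitary libraries share no mouse number. In the tissue contrast the mouse number as a replicate block also called 0 genes (333 against 427 with an unadjusted p under 0.05), same-numbered libraries correlated at -0.059 to 0.095, and 4 of 10 had their own number as best match.

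Counting error limits genes near 1 CPM, and 5 libraries a group limit small changes.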

Other observations

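Of the lists not described above, nuclear hormone receptors held 1 call among 17 tested genes, Nr3c1 (median log2 fold change 0.0052). Teneurins, latrophilins and Megf receptors held 1 among 12, Megf10 (median -0.0279). Of all tested genes 0.549% were called. Among 20 tested receptors of hypothalamic and peripheral hormones the median was 0.091, and the abundant Igf1r and Insr, receptors of insulin-like growth factor and insulin, stood at 431 ± 30.8 against 439.9 ± 24.5 CPM and 279.8 ± 28.03 against 279 ± 11.3 CPM (SD, n = 5 each). The 19 tested lineage factors of the pituitary had a median of -0.125, with Six6 at -0.23 and not past the threshold. Cytosolic and mitochondrial heat shock genes had a median of 0.0959 over 16 tested genes, circadian clock genes of -0.0068 over 18 and cell cycle genes of -0.0738 over 14. For the 15 tested interferon response genes the median was 0.0758 with 13 positive, and -0.0238 with 6 positive without mouse 50.

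Of 5 substrain genes, which differ between C57BL/6 colonies, none was called. Nnt, the nicotinamide nucleotide transhydrogenase that is truncated in C57BL/6J, read 133, 133, 137, 129.6 and 120.1 CPM in the labelled KO and 111, 116, 116, 116 and 119 CPM in the labelled WT libraries (log2 fold change 0.17, edgeR adjusted p = 0.112), and its groups did not overlap. Cyfip2, which carries a coding variant in C57BL/6N, stood at 282 ± 32.4 against 297 ± 14.4 CPM (SD, n = 5 each).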
